A study of Mus musculus with 40 samples.

Results

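Transcription factors that define haematopoietic stem cells were followed by their mRNA in mice with catalytically inactive KAT6A or KAT6B, histone lysine acetyltransferases of the MYST family. The members were picked by gene symbol, with earlier results of these data known: Gata2, Runx1, Tal1, Lmo2, Gfi1b, Meis1, Mecom, Hlf, Erg and Fli1, 10 of the 26411 genes in the count files. RNA-sequencing counts came from 16 samples of E14.5 foetal liver LSK cells, which are lineage marker-negative, SCA-1-positive and c-KIT-positive cells taken by flow cytometry, with 4 foetuses for each of 4 genotypes. These were WT for both genes, Kat6a G656E/G656E (Kat6aE/E), Kat6b G577E/G577E (Kat6bE/E) and both together (double mutant). For context, 24 whole E9.5 embryos covered the same 4 genotypes and also Kat6a cfd/cfd (Kat6a-/-) and Kat6b dec/dec (Kat6b-/-), again 4 each. The animals were C57BL/6, and the alleles were in the germline and so in every cell of the foetus, not only in the sorted cells. Total counts ran from 12270376 to 59216547 in the LSK libraries (median 21709236) and from 8401990 to 23339359 in the embryos (median 15317052). In LSK libraries each member had at least 105 counts, so counting error was small beside the differences between foetuses.

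As background, blood stem cells form in the mid-gestation embryo from endothelium, expand in the foetal liver and are kept undifferentiated by a small network of transcription factors. GATA2, a zinc finger protein, TAL1, a helix-loop-helix protein, and LMO2, an adaptor that bridges them, act in one DNA-bound complex, and ERG and FLI1, both ETS factors, and RUNX1 bind many of the same enhancers. GFI1B is a repressor that works in stem cells and in the red cell and platelet lineages, where TAL1, LMO2 and GATA factors also act. MEIS1, a homeodomain cofactor of HOX proteins, MECOM, which includes EVI1, and HLF, a PAR bZIP factor, are associated with stem cell self-renewal. KAT6A is known to be needed for foetal liver stem cells.

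The members in which a difference between genotypes was called below are Gata2, Tal1 and Gfi1b, so the DNA upstream of their outermost annotated starts is shown. Gata2 lies on chromosome 6 from 88170559 to 88184018 on the plus strand, Tal1 on chromosome 4 from 114913623 to 114928952 on the plus strand, and Gfi1b on chromosome 2 from 28499462 to 28511994 on the minus strand (GRCm39, GENCODE vM39). Each line holds the 250 bases before the gene, read 5′ to 3′ on the strand of the gene, with GATA or its reverse TATC and the E-box CANNTG, short motifs that GATA factors and TAL1 dimers recognise, in capitals.
Gata2, chr6:88170309-88170558, plus strand: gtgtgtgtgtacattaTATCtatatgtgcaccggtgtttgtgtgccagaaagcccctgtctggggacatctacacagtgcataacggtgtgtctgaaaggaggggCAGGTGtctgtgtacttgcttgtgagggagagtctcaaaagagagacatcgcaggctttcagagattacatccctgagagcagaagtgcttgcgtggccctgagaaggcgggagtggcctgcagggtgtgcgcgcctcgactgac
Tal1, chr4:114913373-114913622, plus strand: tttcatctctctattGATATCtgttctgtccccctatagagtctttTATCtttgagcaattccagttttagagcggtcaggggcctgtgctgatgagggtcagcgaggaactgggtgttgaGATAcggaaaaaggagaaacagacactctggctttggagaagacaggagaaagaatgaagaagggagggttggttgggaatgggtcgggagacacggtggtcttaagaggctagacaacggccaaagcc
Gfi1b, chr2:28511995-28512244, minus strand: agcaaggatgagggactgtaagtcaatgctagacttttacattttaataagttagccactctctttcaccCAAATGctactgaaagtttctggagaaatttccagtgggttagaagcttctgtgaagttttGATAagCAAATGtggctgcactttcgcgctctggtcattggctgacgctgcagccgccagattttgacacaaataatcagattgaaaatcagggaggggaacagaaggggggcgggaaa
The Tal1 window held 4 GATA matches and no E-box, the Gfi1b window 1 GATA match and 2 E-boxes, and the Gata2 window 1 of each. Such short motifs were common. Among 32817 mouse promoter windows of the same 250 bases in the RefSeq table (GRCm38.p6), 53.6% held a GATA match on either strand, 66.2% an E-box and 14.0% the RUNX motif TGTGGT. That table held 14 windows for 8 of the members, of which 8 had a GATA match, 6 an E-box and 1 the RUNX motif, that of Meis1. The Gata2 window printed above is not in that table. The Gata2 windows in it lie further downstream and held neither a GATA match nor an E-box. A further Tal1 window in it, downstream of the printed one, also held neither. The table had no entry for Lmo2 and Fli1. Gata2 has a second group of annotated starts further downstream, and counts per gene do not tell the starts apart. The libraries were not stranded, so reads from antisense transcripts are included. An antisense gene shared 11.5% of the exonic bases of Gata2, 4.88% of those of Tal1 and 3.01% of those of Gfi1b.

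The factors were present in LSK cells at very different levels. On the RPKM scale, which divides the counts by library size and by gene length, Lmo2 stood highest in WT LSK cells at 176 ± 6.14 (mean ± SD, n = 4) and Mecom lowest at 3.32 ± 1.19. Between them came Tal1 (42.4 ± 12.03), Gfi1b (35.9 ± 13.0), Erg (31.7 ± 7.21), Gata2 (31.6 ± 1.88), Runx1 (27.7 ± 2.23), Hlf (22.1 ± 7.06), Fli1 (22.0 ± 2.05) and Meis1 (21.4 ± 5.005). The ranges of neighbours in this order overlapped except between Lmo2 and Tal1, between Gata2 and Runx1 and between Meis1 and Mecom. In whole WT embryos at E9.5, where blood cells are a minority, Meis1 was highest at 32.2 ± 1.504 RPKM, and Hlf (0.498 ± 0.0927) and Runx1 (0.363 ± 0.130) were lowest. Meis1 and Mecom reached more RPKM in the embryos than in LSK cells, the other 8 less. The medians of Runx1 were 24.8 RPKM over the 16 LSK libraries and 0.337 over the 24 embryos. Tissue, age and RNA extraction differ between the 2 sets, so these levels were not tested against each other.

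**Figure D1:**
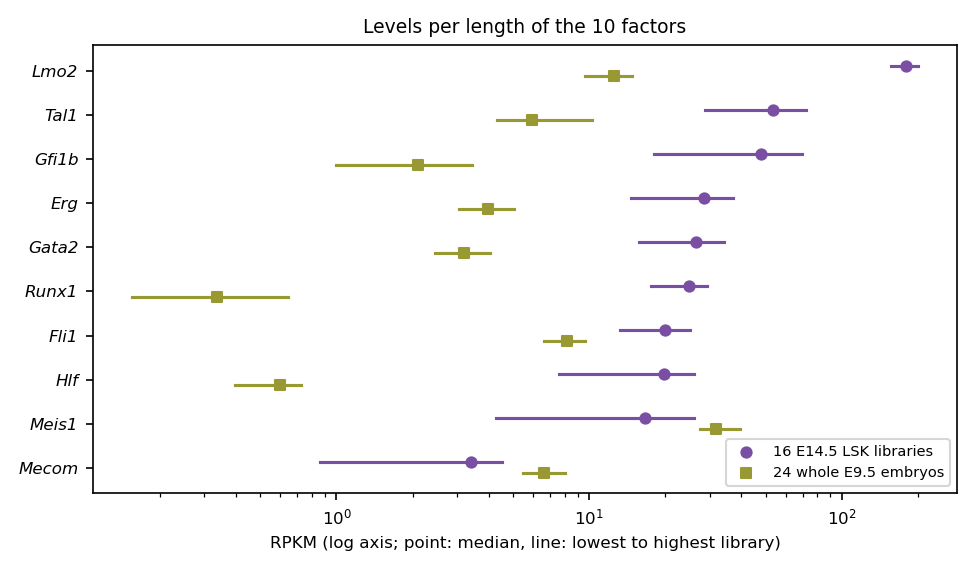
Levels of the 10 factors in RPKM on a log axis, with the median as a point and the lowest to highest library as a line, for 16 LSK libraries and 24 whole embryos. Lmo2 leads in LSK cells with a median of 179.7, whereas Meis1 and Mecom are the members with a higher median in embryos.

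Before the comparisons, the LSK libraries themselves need describing, since several stood apart whatever their genotype. Kit, the stem cell factor receptor used in the sort, was at 351 to 552 CPM (read counts scaled to a common library size), against 31.0 to 48.3 in embryos. Ly6a, which encodes SCA-1, the other sort marker, was at only 0.937 to 10.3 CPM. The summed level of 10 erythroid markers, led by the globin gene Hba-a1, ranged from 559.7 to 15990 CPM, and all 10 were detected in every library. It was 1071 to 1735 CPM in WT replicates 1 to 3 and 4276 in replicate 4. It was 865 and 7189 in Kat6aE/E replicates 1 and 2, then 2613 and 559.7 in replicates 3 and 4. In Kat6bE/E it was 2062, 5796, 5853 and 4588, and in the double mutant 1379, 15990, 9727 and 9279. Part of this followed litters. WT replicates 1 to 3 and Kat6aE/E replicate 1 were from litter 753, Kat6bE/E replicate 1 and double mutant replicate 1 from litter 970, Kat6bE/E replicates 2 and 3 from litter 1026, and double mutant replicates 2 to 4 from litter 1045.

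Members differed along this axis. In WT replicate 4, Gfi1b was at 101 CPM against 52.1 to 54.5 in the other three, and Tal1 at 257 against 143 to 164.5. Hlf went the other way, at 69.2 CPM against 150.1 to 156 in the other three WT libraries, and so did Erg, at 73.1 against 117 to 128. Gata2 showed no such split in WT, at 99.0 CPM in replicate 4 against 105 to 114. In bulk samples, fewer cells of a type and less RNA per cell cannot be told apart.

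**Figure D2:**
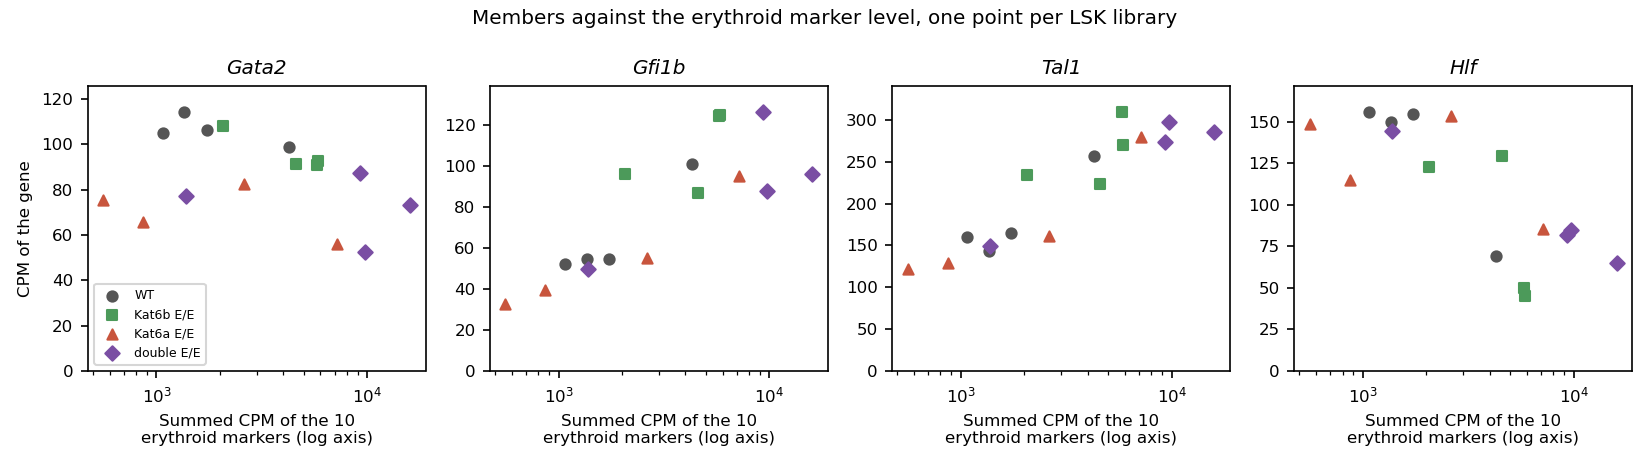
CPM of Gata2, Gfi1b, Tal1 and Hlf in each of the 16 LSK libraries, against the summed CPM of 10 erythroid markers on a log axis, with colour and symbol for genotype. Gfi1b and Tal1 tend to be high and Hlf low in libraries with much erythroid mRNA. The Gata2 values with the Kat6a mutation, 52.6 to 87.4 CPM, all lie below those without it. No library without the mutation has an erythroid sum above 5853 CPM, whereas those with it reach 15990 CPM.

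The model for the tests followed the study's: a limma fit over all 16 libraries with 4 surrogate variables, which are estimated axes of unexplained variation, and litter as a random block. A gene is called at a false discovery rate (FDR) under 0.05 over all 13071 protein-coding genes tested, which included all 10 members. The first question was what the loss of KAT6A catalysis does, asked in Kat6aE/E against WT, in the double mutant against Kat6bE/E, and over both Kat6b genotypes at once. The first 2 of these share no libraries, but they are not independent tests. Both come from the same fit, with its surrogate variables and its estimate of the spread.

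Gata2 fell in LSK cells with the Kat6a mutation. It was at 114, 106, 105 and 99.0 CPM in WT and at 65.5, 56.0, 82.3 and 75.4 in Kat6aE/E. It was at 108, 90.7, 92.6 and 91.3 CPM in Kat6bE/E and at 77.1, 73.2, 52.6 and 87.4 in the double mutant. The 8 libraries with the Kat6a mutation (median 74.3, highest 87.4) thus all lay below the 8 without it (lowest 90.7, median 102). No other member was separated like this, and of all genes tested 0.207% had all 8 mutant libraries below the other 8. In Kat6aE/E against WT alone, Gata2 was again the single member without overlap, where 2.21% of all genes were lower without overlap. The group means were 106 ± 6.30 CPM in WT, 95.6 ± 8.22 in Kat6bE/E, 69.8 ± 11.5 in Kat6aE/E and 72.6 ± 14.6 in the double mutant (± SD, n = 4).

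The fitted log2 fold change of Gata2 was -0.57 (SE 0.0750, FDR 0.00315) in Kat6aE/E against WT, rank 5 of all genes by p. It was -0.40 (SE 0.0973, FDR 0.0428) in the double mutant against Kat6bE/E and -0.48 (SE 0.0602, FDR 0.000344) over both Kat6b genotypes. Against WT, the double mutant gave -0.50 (SE 0.118), which was not called (FDR 0.282), in a comparison that called no gene at all. Every alternative model and every fit without a library left the estimate over both Kat6b genotypes between -0.60 and -0.44. Without surrogate variables its FDR was 0.0530, and with litter as a fixed term 0.225. In Kat6aE/E against WT the call was lost without Kat6aE/E replicate 1 (log2 fold change -0.45, FDR 0.385) and in 6 of 14 other models, among them 0 or 2 surrogate variables (FDR 0.197 and 0.0811), litter as a fixed term (0.773) and DESeq2 (0.0531). The estimate was below 0 in all 22 alternative fits, from -0.72 to -0.45.

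**Figure D3:**
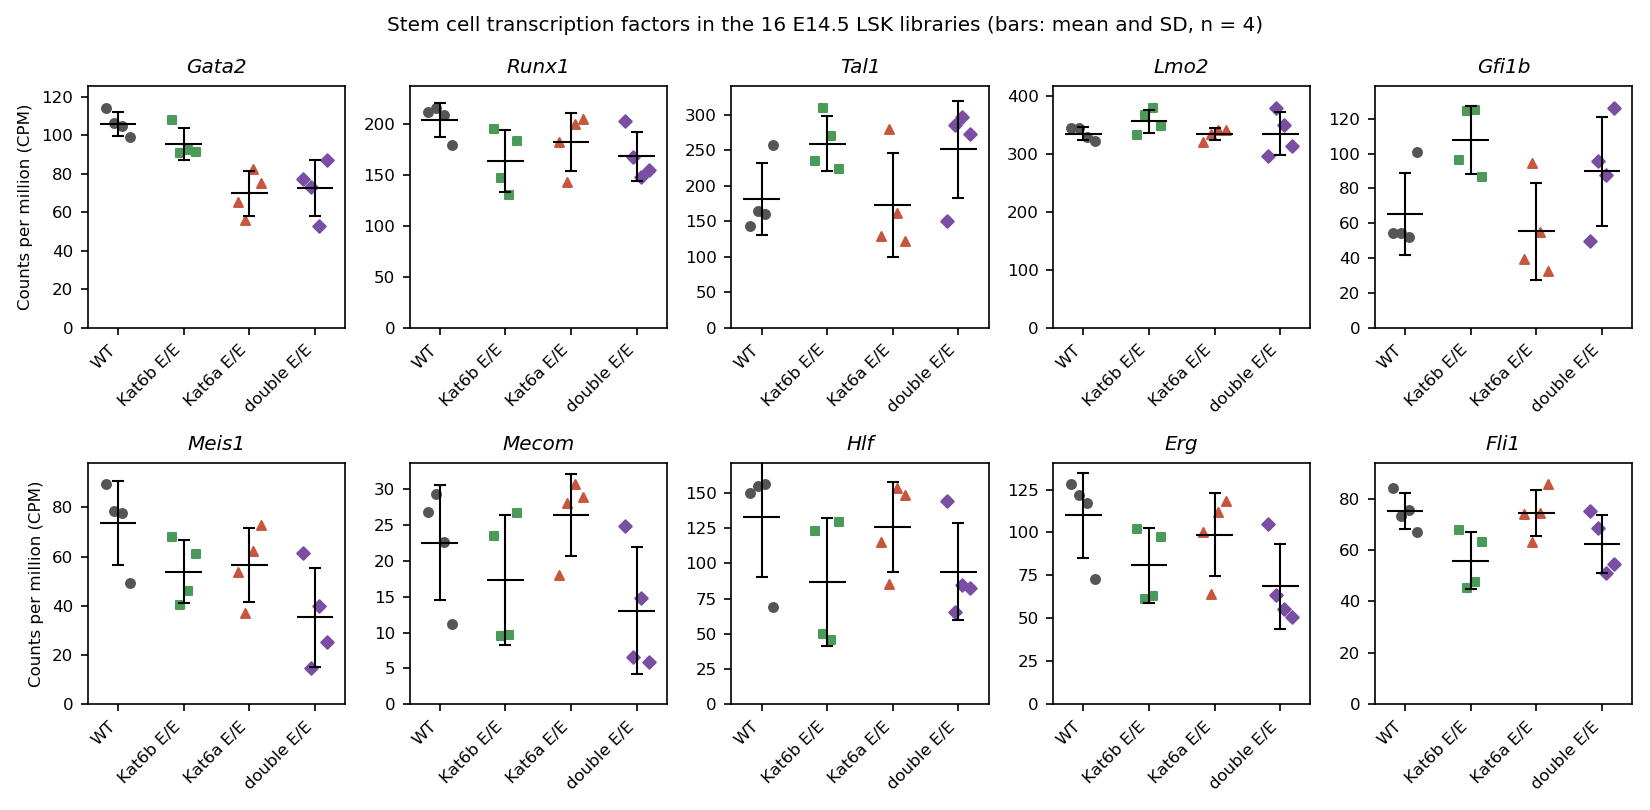
CPM of each of the 10 factors in the 16 LSK libraries by genotype, with the mean and SD of 4 libraries as bars. For Gata2 the 8 libraries with the Kat6a mutation lie at 52.6 to 87.4 CPM and the other 8 at 90.7 to 114, while the genotypes overlap for the other 9 factors.

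The partners of GATA2 in its complex were less clear-cut. Tal1 was at 143, 164.5, 160.4 and 257 CPM in WT and at 129, 279.6, 162 and 122 in Kat6aE/E. It was at 235, 309, 269.6 and 224 CPM in Kat6bE/E and at 149.8, 286, 297 and 273 in the double mutant. The genotypes overlap, and the highest Kat6aE/E library, replicate 2, is also the one with the highest erythroid sum of its group. Lmo2 hardly varied, with 322 to 345 CPM in WT, 321 to 342 in Kat6aE/E, 332 to 378 in Kat6bE/E and 296 to 379 in the double mutant.

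Gfi1b was at 54.5, 54.4, 52.1 and 101 CPM in WT and at 39.3, 94.8, 54.9 and 32.8 in Kat6aE/E. It was at 96.2, 124, 125 and 86.5 CPM in Kat6bE/E and at 49.9, 95.9, 87.5 and 126 in the double mutant. As for Tal1, the genotypes overlap and the higher libraries mostly had more erythroid mRNA, but not in strict order. Kat6bE/E replicate 1, with an erythroid sum of 2062 CPM, had Gfi1b at 96.2 and Tal1 at 235 CPM. Kat6aE/E replicate 3, with a sum of 2613 CPM, had them at 54.9 and 162.

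With the surrogate variables in the model, both fell with the Kat6a mutation. Over both Kat6b genotypes the log2 fold change was -0.67 (SE 0.107, FDR 0.00201) for Gfi1b and -0.41 (SE 0.0717, FDR 0.00298) for Tal1. In the double mutant against Kat6bE/E it was -0.80 (SE 0.174, FDR 0.0361) for Gfi1b and -0.49 (SE 0.115, FDR 0.0390) for Tal1. In Kat6aE/E against WT neither was called, at -0.55 (SE 0.132, FDR 0.0603) and -0.32 (SE 0.0902, FDR 0.104). Without surrogate variables neither was called in any of these 3 comparisons, and over both Kat6b genotypes the log2 fold changes were -0.44 for Gfi1b (FDR 0.602) and -0.22 for Tal1 (FDR 0.784). When the erythroid sum itself was put in the model in their place, an alternative chosen after seeing the data, Gfi1b was called over both Kat6b genotypes at -0.44 (FDR 0.0271), Tal1 was not at -0.21 (FDR 0.120), and Gata2 was called at -0.46 (FDR 0.00294). In Kat6aE/E against WT the Gata2 call was lost with the erythroid sum in the model, in a fit that called 3 genes. The erythroid markers moved with these libraries but none of the 9 tested was called by limma over both Kat6b genotypes. Their estimates ran from -0.81 to -0.37, and 3 had an unadjusted p under 0.05, as had 3760 of the 13071 genes. That fit adjusts for the surrogate variables, which can take up the erythroid axis itself, so it did not test the part of these markers. Before adjustment the median erythroid sum was 1739 CPM in Kat6aE/E against 1546.5 in WT. It was 9503 in the double mutant against 5192 in Kat6bE/E.

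In numbers, 1 of the 10 members was called in Kat6aE/E against WT, 3 in the double mutant against Kat6bE/E, and the same 3 over both Kat6b genotypes. The shares of all genes called were 1.48%, 3.03% and 11.9%. The median log2 fold change of the 10 members over both Kat6b genotypes was -0.04, against -0.03 for all genes, so the members did not fall as a group: 5 of the 10 estimates were below 0 and 5 above. The calls in the double mutant against Kat6bE/E were the least stable, held in 5 of 22 alternative fits for Gata2, 7 for Gfi1b and 4 for Tal1. The Tal1 call over both Kat6b genotypes was lost without double mutant replicate 1 (log2 fold change -0.20, FDR 0.0544). In the double mutant against Kat6bE/E all 3 were lost without any 1 of Kat6bE/E replicates 1 to 3 or of double mutant replicates 2 to 4.

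**Figure D4:**
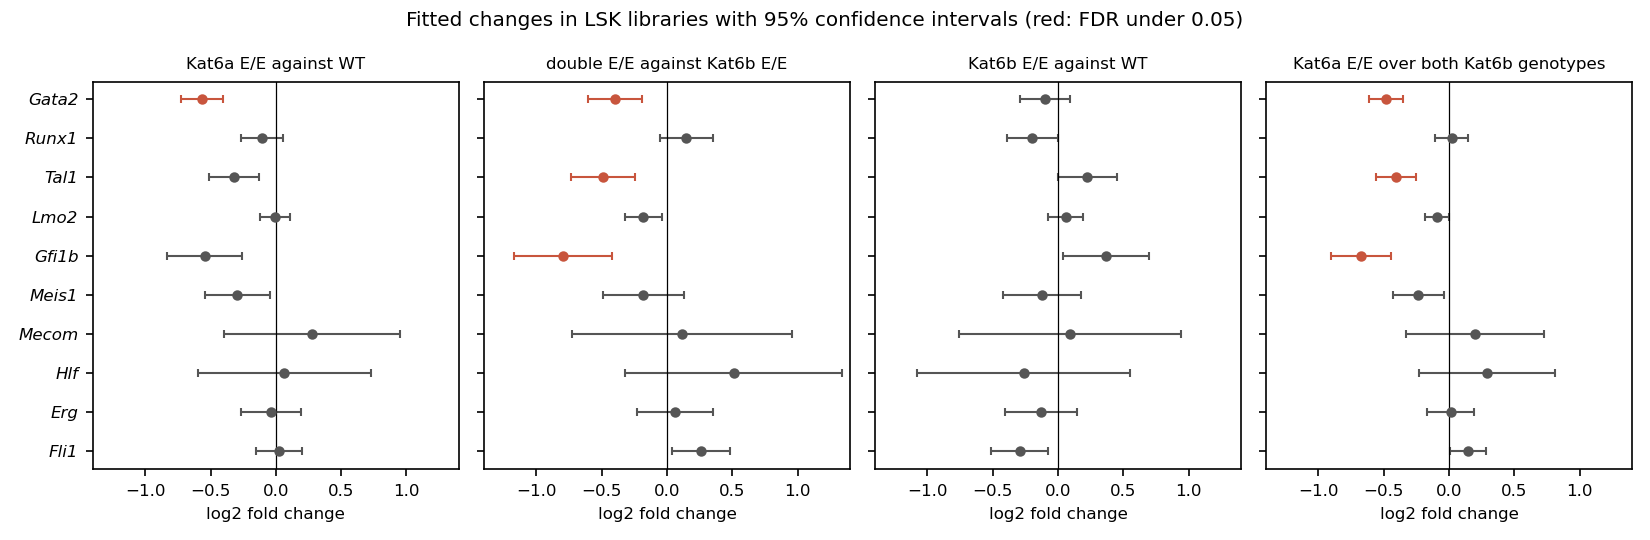
Fitted log2 fold changes of the 10 factors with 95% confidence intervals in 4 comparisons of LSK libraries, red where the FDR is under 0.05. Gata2, Tal1 and Gfi1b lie at -0.41 to -0.67 over both Kat6b genotypes, and Mecom and Hlf have the widest intervals.

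**Figure D5:**
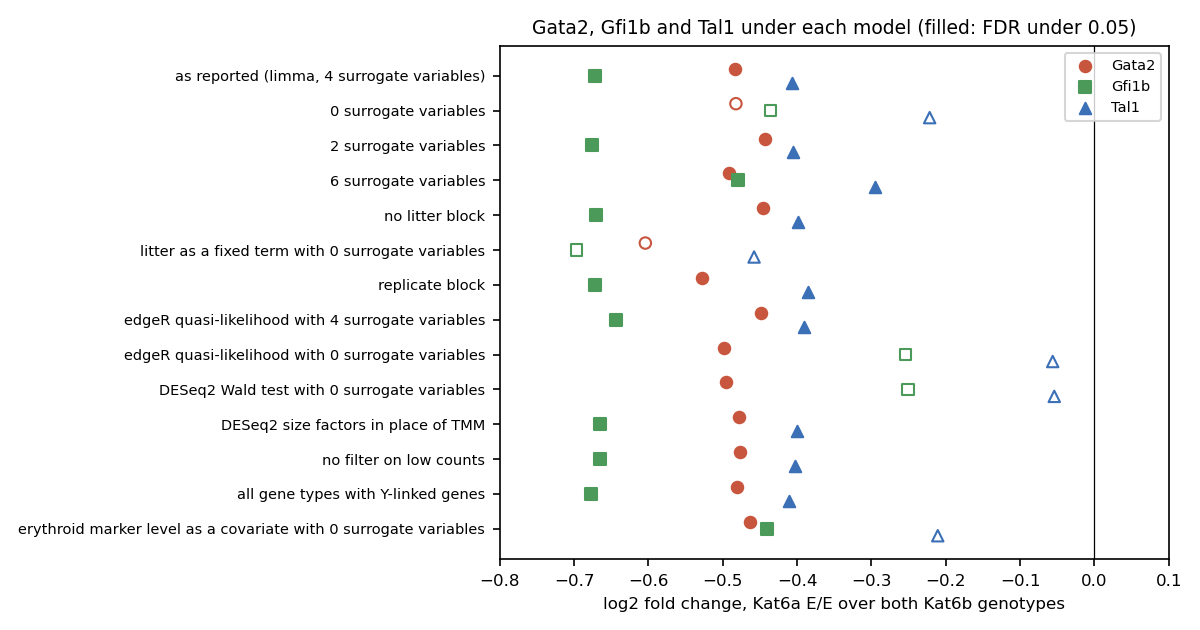
Log2 fold change over both Kat6b genotypes of Gata2, Gfi1b and Tal1 under each model, filled where the FDR is under 0.05. Gata2 stays between -0.60 and -0.44, whereas Gfi1b reaches -0.25 and Tal1 -0.05 in fits without surrogate variables.

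The other 7 members were not called in any LSK comparison of the main model. Among the self-renewal factors, Meis1 was at 49.1 to 89.3 CPM in WT, 37.1 to 72.7 in Kat6aE/E, 40.4 to 68.2 in Kat6bE/E and 14.7 to 61.4 in the double mutant. Its estimate over both Kat6b genotypes was -0.24 (SE 0.0913, FDR 0.102), below 0 in all 29 alternative fits and called in 8 of them. Hlf (0.29, SE 0.230, FDR 0.450) and Mecom (0.20, SE 0.237, FDR 0.628) had intervals from -0.23 to 0.81 and from -0.33 to 0.72. A fall as large as that of Gata2 lies outside both intervals of the main model, while a rise of that size does not. The estimates moved with the model. Over 29 alternative fits Mecom ran from -0.30 to 0.35, below 0 in 11, and Hlf from -0.09 to 0.44, below 0 in 3. Hlf ranged from 69.2 to 156 CPM within WT and from 45.4 to 129 within Kat6bE/E.

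The estimates of the ETS factors and of RUNX1 were more precise. Over both Kat6b genotypes, Erg stood at 0.01 (95% interval -0.17 to 0.19), Runx1 at 0.02 (-0.11 to 0.15) and Fli1 at 0.14 (0.0032 to 0.28, FDR 0.164). For Erg and Runx1, too, a fall as large as that of Gata2 lies outside these intervals. Erg depended on 1 library: without double mutant replicate 1, its estimate turned from 0.01 to -0.19 (FDR 0.0286) over both Kat6b genotypes, and from 0.06 to -0.28 (FDR 0.0263) in the double mutant against Kat6bE/E. Lmo2, the bridging partner of TAL1 and GATA2, was at -0.09 (-0.18 to -0.0037, FDR 0.157).

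The second question was what KAT6B catalysis adds. No member was called in Kat6bE/E against WT by limma, edgeR or DESeq2, while 3 had an unadjusted p under 0.05 in limma: Gfi1b (log2 fold change 0.36), Fli1 (-0.29) and Runx1 (-0.20). The share of all genes called was 0%, and 346 of the 13071 genes had an unadjusted p under 0.05 in limma. Without WT replicate 4, the WT library with the highest erythroid sum, Gfi1b was called as higher in Kat6bE/E (FDR 0.0340). In the double mutant against Kat6aE/E 0 members were called, with 0 at an unadjusted p under 0.05 in limma, against 0% of all genes, and edgeR and DESeq2 also called none. In the double mutant against WT limma called 0 members (0% of all genes) and DESeq2 called 1, Gata2 (log2 fold change -0.55, FDR 0.0170). In limma 1 member, Gata2, had an unadjusted p under 0.05 there, as had 867 of the 13071 genes. The interaction, which asks whether the Kat6a mutation acts differently in the presence of the Kat6b mutation, called 0 members (0% of all genes) in limma, with 0 at an unadjusted p under 0.05, and edgeR and DESeq2 also called none. For Gata2 it was 0.17 (95% interval -0.10 to 0.43).

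Set directly against each other, the single mutants differed in the same 3 members. Kat6aE/E was lower than Kat6bE/E in Gfi1b (log2 fold change -0.91, SE 0.148, FDR 0.0108), Tal1 (-0.55, SE 0.102, FDR 0.0146) and Gata2 (-0.47, SE 0.0867, FDR 0.0136), where 3.13% of all genes were called. All 3 calls were lost without surrogate variables, where the FDR was 0.352 to 0.439, with the erythroid covariate (0.105 to 0.514), with a replicate block (0.0943 to 0.111), and without Kat6aE/E replicate 1 or replicate 4. The 9 erythroid markers tested all had estimates below 0 here (median -1.002), and none was called by limma. In limma 3 of them had an unadjusted p under 0.05, as had 2471 of the 13071 genes. Of the megakaryocyte markers, 3 of 9 were called lower. The part of these markers in the result was not tested beyond the erythroid covariate.

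Within litters, only 2 contrasts were available in LSK cells, each with 1 library in at least 1 arm and so with no test. Embryo litters 5556, 683 and 3482 also held WT and mutant embryos but were not compared in this way. In litter 753, Gata2 was at 65.5 CPM in the Kat6aE/E foetus and at 105 to 114 in its 3 WT littermates. In the same litter Gfi1b was at 39.3 against 52.1 to 54.5 CPM. In this foetus 9 members lay below all 3 WT littermates, and 1, Fli1, lay within their range, so among the members the low value was not particular to Gata2. In litter 970, Gata2 was at 77.1 CPM in the double mutant and 108 in its Kat6bE/E littermate, Gfi1b at 49.9 and 96.2, and Tal1 at 149.8 and 235. There 5 members were lower and 5 higher in the double mutant. For both litters the shares of all genes on these sides were not computed, so the counts cannot be set against a background.

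The wider network was read from a list of 32 related regulators. Over both Kat6b genotypes 8 fell and 3 rose, against the 11.9% of all genes called. Among the lower genes were Gata1 (-0.82, FDR 0.00987) and Klf1 (-0.77, FDR 0.0461), the main activators of red cell genes, and Zfpm1 (-0.57, FDR 0.00468), the FOG1 cofactor of GATA proteins. Also lower were Ldb1 (-0.17, FDR 0.0251) and Tcf3 (-0.19, FDR 0.0169), 2 further parts of the TAL1-LMO2 complex, Pbx3 (-0.35, FDR 0.0437), which encodes a DNA-binding partner of MEIS1, and Mllt3 (-0.28, FDR 0.0203). Higher were Hoxb4 (0.85, FDR 0.00389), Cbfb (0.34, FDR 0.0231), which encodes the partner of RUNX1, and Cebpa (0.21, FDR 0.0202), a granulocyte factor. In Kat6aE/E against WT none of the 32 was called by limma, with 10 at an unadjusted p under 0.05, as were 1674 of all 13071 genes. These values come from the model with surrogate variables, and without them only 17 of the 13071 genes were called over both Kat6b genotypes, against 1557. The CPM means of Klf1 hardly differed, at 104.6 in Kat6aE/E against 104.3 in WT and 214 in the double mutant against 223 in Kat6bE/E. Those of Gata1 were 61.7 against 65.5 and 111 against 132.5, and those of Mllt3 were 43.0 against 44.6 and 63.9 against 60.6, higher in the double mutant.

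Of 18 stem cell surface and signalling genes, 2 fell and 1 rose over both Kat6b genotypes. This and the marker counts below stand beside the 11.9% of all genes called in that comparison, or 17 of 13071 without surrogate variables. Itga2b, which encodes the early stem cell and platelet integrin CD41, fell (-0.995, FDR 0.000331) and was also lower in Kat6aE/E against WT (-0.78, FDR 0.0151) and in the double mutant against Kat6bE/E (-1.21, FDR 0.0142). Vwf fell (-0.69, FDR 0.0210) and Ptprc, the CD45 gene, rose (0.34, FDR 0.00365). Among markers of other lineages, Cpa3, a mast cell protease gene, had the smallest p of all 13071 genes in Kat6aE/E against WT (-1.04, FDR 0.000220), with 16.1 to 23.8 CPM against 32.0 to 43.1. Over both Kat6b genotypes 2 of 8 mast cell and basophil markers fell, 4 of 9 megakaryocyte markers fell, 5 of 7 lymphoid markers fell and 1 rose, and 3 of 11 granulocyte and monocyte markers rose. Of the markers of cells outside the blood stem cell gate, 1 of 9 endothelial and 1 of 9 hepatocyte genes rose. None of 8 macrophage genes was called, while 3 had an unadjusted p under 0.05 in limma, as had 3760 of the 13071 genes. The summed mast cell and basophil level was 88.4 to 172 CPM in WT and 74.6 to 129 in Kat6aE/E, and the summed megakaryocyte level 30.9 to 55.2 and 24.8 to 41.6. These ranges overlap, but those of the summed lymphoid level did not. It was 105 to 197 CPM in WT and 120 to 145 in Kat6bE/E, against 43.35 to 88.55 in Kat6aE/E and 11.4 to 76.1 in the double mutant. Cpa3 was likewise separated in the other pair, at 28.1 to 37.7 CPM in Kat6bE/E and 15.05 to 25.7 in the double mutant. The part of these other cell types in the fall of Gata2, Gfi1b and Tal1 was not tested.

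The targeted genes could not check the labels, because a point mutation leaves the transcript in place. Kat6a was at 128 to 198 CPM and Kat6b at 22.3 to 40.8 CPM over the LSK libraries, and neither was called in any LSK comparison. In embryos the deletions remove only some exons of each gene. Kat6a was at 160 to 171 CPM in Kat6a-/- and 169 to 186 in WT (log2 fold change -0.08, FDR 0.718), and Kat6b was higher in Kat6b-/- at 52.0 to 58.3 CPM against 38.2 to 42.6 (0.41, FDR 0.00373).

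In whole E9.5 embryos 0 of the 10 members were called in any of 5 comparisons with WT, by limma, edgeR or DESeq2, in fits over all 24 libraries and 14183 genes. The shares of all genes called were 2.67% in Kat6a-/-, 0.585% in Kat6b-/-, 0.247% in Kat6aE/E, 0% in Kat6bE/E and 2.67% in the double mutant. The unadjusted p was under 0.05 in limma for 3 members in Kat6a-/-, 1 in Kat6b-/- and 3 in the double mutant. Of all 14183 genes it was under 0.05 for 2398, 1737 and 2529 in these comparisons. These comparisons share the WT embryos.

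Mecom and Gata2 came nearest. Mecom was at 37.2, 38.7, 43.2 and 37.2 CPM in Kat6a-/- embryos and at 47.7, 49.2, 48.9 and 46.4 in WT, with no overlap, where 6.49% of all genes were lower without overlap. Its log2 fold change was -0.27 (SE 0.0878, FDR 0.1003), and it was called in Kat6a-/- when only these 8 libraries were fitted. In double mutant embryos, both Mecom (38.1 to 46.0 CPM, -0.25, FDR 0.125) and Gata2 lay below WT without overlap, where 3.94% of all genes did. Gata2 was at 9.04, 9.01, 9.64 and 8.22 CPM in the double mutants and at 11.3, 12.3, 12.6 and 10.8 in WT (log2 fold change -0.32, SE 0.109, FDR 0.112). In Kat6aE/E embryos Gata2 was at 9.25 to 13.5 CPM, with an estimate of -0.13 (95% interval -0.35 to 0.08), and the difference from the LSK estimate was not tested. Gfi1b had intervals of over 1 log2 unit in all 5 comparisons, at 1.81 to 6.26 CPM.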

How the data were processed

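Counts per gene from 16 LSK and 24 embryo RNA-sequencing libraries were used. The authors aligned read pairs to mm39 and counted them per RefSeq gene with featureCounts, and the deposited unit is the raw count of read pairs. The labels give TruSeq v2 libraries, which do not keep strand, and the sources differ on the sequencer and read length.

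Gene types came from a RefSeq table (GRCm38.p6) matched by gene identifier for 26359 of 26411 genes. The 52 others were left out, as were Y-linked and non-coding genes, leaving 20951. As in the study's methods, filterByExpr and TMM scaling came first, then wsva gave 4 surrogate variables and voomLmFit was run with litters as random effects and robust empirical Bayes moderation, each tissue on its own (litter correlation 0.331 in LSK cells, 0.107 in embryos). FDR values are p-values adjusted by the Benjamini-Hochberg method, over every gene tested in that comparison. CPM and RPKM were computed from the counts with TMM library sizes. R 4.3.3, limma 3.58.1, edgeR 4.0.16 and DESeq2 1.42.0 were used. Foetuses were separate animals. Replicates differed by 2.23 or more times the sampling variance per gene, so none was a duplicate. The procedure was tested on simulated counts, for Kat6aE/E against WT only. These were drawn without litter effects or hidden axes of variation, so that test does not bear on how the fit handles them.

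The members and lists were chosen with earlier results of these data known. Named genes are the members, Kat6a, Kat6b, called genes of 2 regulator and surface lists, called or most abundant genes of 8 cell type lists, and the sort markers. The values of 1 called regulator are not reported here. Hemoglobin genes are near-identical copies whose reads may be split. Alternatives were 0, 2 or 6 surrogate variables, no litter block, litter as a fixed term, a replicate block, edgeR quasi-likelihood, DESeq2, DESeq2 size factors, no count filter, all gene types, only the genotypes compared, omission of each library, and, chosen after seeing the data, the erythroid level as a covariate. Genes counted as fallen or risen are called ones, while counts of estimates below 0 and of levels within litters include genes not called.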

Additional observations from a re-analysis of the deposited data

Results flagged for a closer look

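In 8 of the 100 groups of 4 libraries examined (10 members in 10 genotypes), 1 library lay further from the rest than Dixon's 95% limit for the gap over the range, and chance alone gives about 5% of groups. Of these, 4 were in LSK cells. In WT, replicate 4 had the highest Gfi1b (100.9 CPM, others 52.1 to 54.5) and the lowest Hlf (69.2 CPM, others 150.1 to 156). In the double mutant, replicate 1 had the lowest Tal1 (149.8 CPM, others 273 to 297). These 3 follow the erythroid marker sum of the same libraries, 4276 CPM against 1071 to 1735 in WT and 1379 against 9279 to 15990 in the double mutant. In Kat6bE/E, replicate 1 had the highest Gata2 (108 CPM, others 90.7 to 92.6), and all 4 of these values exceed those of the 8 libraries with the Kat6a mutation.

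The other 4 were in embryos. Fli1 was high in WT replicate 2 (31.6 CPM, others 26.9 to 27.5) and in double mutant replicate 3 (28.4 CPM, others 27.0 to 27.1). Runx1 was high in Kat6bE/E replicate 1 (4.74 CPM, others 1.97 to 2.41). Mecom was high in double mutant replicate 2 (46.0 CPM, others 38.1 to 38.9).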

How the results depend on the processing

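Of 2890 values of members under alternatives, 2769 stayed on their side of the threshold with no called value changing sign, 96 lost a call, 23 gained one and 2 reversed. The reversals were both Erg without double mutant replicate 1, at -0.28 in the double mutant against Kat6bE/E (up to 0.206 without other libraries) and -0.19 over both Kat6b genotypes (up to 0.0882). The 2769 include 2627 values called in neither fit, of which 297 changed sign.

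Kat6aE/E against WT, with 1 member called, gave 0 with 0 or 2 surrogate variables, with litter as a fixed term, edgeR or DESeq2 without surrogate variables and the erythroid covariate, 3 with 6 surrogate variables, and 0 to 2 without single libraries. The double mutant against Kat6bE/E, with 3, gave 0 with 0 or 6 surrogate variables, litter as a fixed term, a replicate block, edgeR or DESeq2 without surrogate variables, no count filter, all gene types or only these genotypes, 1 with the erythroid covariate, and 0 to 4 without single libraries, where omission of any of Kat6bE/E replicates 1 to 3 or double mutant replicates 2 to 4 left 0. Kat6aE/E against Kat6bE/E, with 3, gave 0 with 0 surrogate variables, the replicate block, edgeR or DESeq2 without surrogate variables, only these genotypes and the erythroid covariate, and 0 to 3 without single libraries, 0 without Kat6aE/E replicate 1 or 4. Over both Kat6b genotypes, 3 became 0 with 0 surrogate variables or litter as a fixed term, 1 with edgeR or DESeq2 without surrogate variables, and 3 to 4 without single libraries. The double mutant against WT, with 0, gave 1 with DESeq2 and 0 to 3 without single libraries, 3 without double mutant replicate 1. Kat6bE/E against WT gave 0 to 1, and Kat6a-/- embryos 1 when only these genotypes were fitted. The causes were not tested, beyond the smaller numbers of libraries.

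Samples with the same replicate number did not deviate together throughout, although some did, such as 5 of the 6 LSK pairs of replicate 1. The correlation exceeded 0.1 in 8 of 24 LSK pairs (-0.43 to 0.35) and 16 of 60 embryo pairs (-0.23 to 0.31), so the numbers were not taken as pairs. With the replicate block, 1 member was called in Kat6aE/E against WT and 3 over both Kat6b genotypes, while all 3 calls were lost in the double mutant against Kat6bE/E (FDR 0.0717 to 0.0924) and in Kat6aE/E against Kat6bE/E (0.0943 to 0.111). The interaction could not be fitted with only the genotypes compared, since it uses all 4, and litter as a fixed term could be fitted only where litters hold both genotypes or link them.

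The number of all genes called moved with the model as well. Over both Kat6b genotypes, 1557 were called as reported, 17 with 0 surrogate variables, 903 with 2, 835 with 6, 198 with DESeq2, 596 with the replicate block and 379 with the erythroid covariate. For Kat6aE/E against WT these were 193, 3, 23, 366, 6, 24 and 3, and for the double mutant against Kat6bE/E 396, 0, 704, 184, 253, 19 and 500.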
